A study of Mus musculus with 6 samples.

Results

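Neurog2, Dlx1, Dlx2, Dlx5, Gad1, Dcx, Tubb3, Map2 and Elavl3 were followed as proneural factors and early neuronal genes in cultured mouse neural stem cells (NSCs). These 9 genes were chosen by name, and all 9 were found by symbol among the 53110 genes listed in the deposited table. Of the 9, 8 had at least 1 read and 7 had a mean of at least 10 normalized counts over the 6 samples, the level from which genes were compared here. The study asked how losing 1 copy of Setd5, a gene for a chromatin-associated SET domain protein, affects transcription and mitochondria in neural cells.

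The cells of both groups were primary NSCs of the embryonic mouse cortex, kept in medium with EGF and bFGF, grown as adherent cultures and held at 21% O2. The WT group was wild type at Setd5 and the Setd5+/- group carried a heterozygous mutation made with CRISPR-Cas9, and no further treatment is labelled for either. Each genotype had 3 samples, with 9995980 to 10004948 reads on genes per WT sample and 7143309 to 7146147 per Setd5+/- sample. The 3 columns of a genotype share a single index and lane in their headers, and those of the mutant carry the name of a single clone, A3. Within a genotype the read pairs differed by no more than sampling noise, with a chi-square per degree of freedom of 0.958 to 0.981 in the 6 comparisons of samples, against 31.7 to 31.9 in the 9 comparisons between genotypes. Each genotype was therefore counted as 1 library of 3 parts, and the genotypes cannot be told apart from clone, culture, index or sequencing lane. No gene below has a replicate check, so no p-value is given for it, and each interval is a 95% exact (Clopper-Pearson) interval from read pairs that covers counting error only. Setd5 itself had 2498, 2749 and 2780 normalized counts (reads divided by a size factor) in WT, against 2151, 1990 and 2055 in the mutant, or 77.2% of WT by the means.

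Proneural factors are basic helix-loop-helix (bHLH) transcription factors that bind E-boxes in DNA together with E proteins and move a dividing progenitor towards a neuron. Neurog2 does this mainly in the dorsal cortex, where progenitors give glutamatergic neurons, while the homeodomain factors Dlx1, Dlx2 and Dlx5 act in the ventral forebrain, where GABAergic interneurons arise and Gad1 is switched on. Dcx, Tubb3, Map2 and Elavl3 encode microtubule and RNA-binding proteins that are widely used to mark young neurons, although Map2 is also transcribed in other neural cells.

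The upstream sequences of 5 members are shown because 4 of them (Neurog2, Gad1, Dcx and Elavl3) had lower counts and 1 (Dlx2) higher counts in the mutant library. They come from RefSeq on build GRCm38.p6, end before the gene's RefSeq start, and are cut where a GENCODE exon begins. Capitals mark an E-box (CANNTG on either strand), the element bound by bHLH factors.
Neurog2 (chr3:127632886-127633134, plus strand): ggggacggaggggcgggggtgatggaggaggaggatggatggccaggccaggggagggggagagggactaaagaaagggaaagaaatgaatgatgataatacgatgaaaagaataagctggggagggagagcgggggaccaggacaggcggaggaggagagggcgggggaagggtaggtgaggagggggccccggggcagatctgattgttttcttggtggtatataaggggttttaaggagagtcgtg
Gad1 (chr2:70561879-70562041, plus strand): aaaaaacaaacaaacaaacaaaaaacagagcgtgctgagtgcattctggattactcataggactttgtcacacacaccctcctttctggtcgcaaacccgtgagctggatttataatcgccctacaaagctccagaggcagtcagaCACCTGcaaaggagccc
Dcx (chrX:143933312-143933469, minus strand): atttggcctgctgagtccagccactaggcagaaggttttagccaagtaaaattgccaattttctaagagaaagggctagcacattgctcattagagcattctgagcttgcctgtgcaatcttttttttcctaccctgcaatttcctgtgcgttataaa
Elavl3 (chr9:22052024-22052273, minus strand): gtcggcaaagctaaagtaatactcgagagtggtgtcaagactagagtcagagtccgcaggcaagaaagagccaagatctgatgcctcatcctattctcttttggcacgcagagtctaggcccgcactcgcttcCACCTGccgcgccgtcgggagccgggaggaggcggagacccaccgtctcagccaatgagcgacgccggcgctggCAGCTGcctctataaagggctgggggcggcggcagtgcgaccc
Dlx2 (chr2:71546755-71547004, minus strand): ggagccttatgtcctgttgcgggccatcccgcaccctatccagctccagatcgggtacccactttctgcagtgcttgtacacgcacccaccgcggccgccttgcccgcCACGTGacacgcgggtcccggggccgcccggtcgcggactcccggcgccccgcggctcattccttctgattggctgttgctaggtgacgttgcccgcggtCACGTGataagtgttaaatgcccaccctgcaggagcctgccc
Promoters were found for 8 of the 9 members, and not for Dlx5. Over the full 250 bases before the start, an E-box was present upstream of Gad1, Elavl3 and Dlx2, with 1 match in Gad1 and 2 in each of the others, and was absent upstream of Neurog2, Dlx1, Dcx, Tubb3 and Map2. Of all 32851 mouse promoters in the same table, 66.2% held an E-box in a window of this length. The E-box form CAGATG, searched on both strands, which is a subset of the E-box search and is known from proneural targets, was in 14.4% of all promoters and in none of the members. The form CAGCTG, also part of that search, was in 13.0% of all promoters and in Elavl3 alone among the members. The homeodomain core TAATTA was in 4.84% of all promoters and, among the members, in Dcx alone, in bases that GENCODE counts as exon and that are not printed. Such letter matches do not show that any factor bound there.

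Across all genes, 16266 passed the filter, and the log2 ratio of Setd5+/- over WT mean normalized counts had a median of -0.02. A gene was called where the 2 libraries differed by at least 2-fold. By this rule 16.9% of all genes tested were called in either direction, 6.34% as lower and 10.6% as higher in Setd5+/- NSCs. In bulk RNA, fewer neuronal cells and less RNA per cell cannot be told apart. Of the 7 members tested, 4 were lower past 2-fold (Neurog2, Gad1, Dcx and Elavl3), 1 was higher (Dlx1) and 2 were within 2-fold (Tubb3 and Map2). Their median log2 ratio was -2.14, and it was -1.26 when Dlx2, with too few reads to pass the filter, was added. Neurog2 passed the filter only through its WT level and Dlx1 only through its mutant level, so both had to differ and the member counts carry no weight of their own. With the filter at 50 normalized counts neither was tested. Then 3 members (Gad1, Dcx and Elavl3) remained past 2-fold and Tubb3 and Map2 within it, while 1640 of all 12570 genes tested were past 2-fold. The 3 WT and the 3 Setd5+/- values did not overlap for any of the 7 members, as was also the case for 65.3% of all genes tested. The samples are parts of 1 library per genotype. Such a separation, also where it is named for single genes below, is thus no replicate check. The limma comparison, which measures only the reads of these 2 libraries, called 61.3% of all genes and 6 of the 7 members, the exception being Tubb3.

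**Figure D1:**
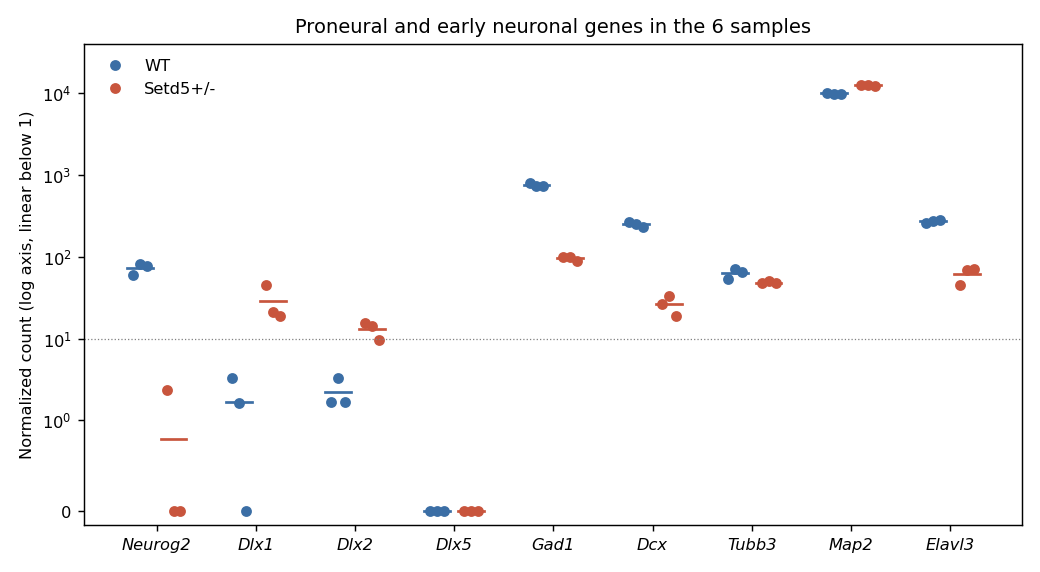
Normalized count (log axis, linear below 1) of the 9 genes in each of the 3 WT (blue) and 3 Setd5+/- (red) samples, with a bar at the mean and a dotted line at 10 normalized counts. Neurog2, Gad1, Dcx and Elavl3 lie lower and Dlx1 and Dlx2 higher in the mutant, the genotypes lie close together for Tubb3 and Map2, and Dlx5 is at 0 throughout.

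Neurog2 (ENSMUSG00000027967, chr3:127633135-127635631 on GRCm38) encodes neurogenin 2, the bHLH factor that starts glutamatergic neurogenesis in the cortex. It had 59.7, 81.1 and 76.2 normalized counts across WT samples, against 2.38, 0 and 0 across Setd5+/- samples. Almost all of its reads thus came from the WT library, which held 262 reads against 2 in the mutant library, the ends of a single read pair. The ratio of the means was 91.0-fold lower in Setd5+/- NSCs, with an interval of 16.1- to 3624-fold. Without Setd5+/- sample 1, which holds that pair, the mutant is at 0 reads and the log2 ratio against the floor of 3 read pairs is -4.34, a bound on the difference. Of the 8 proneural bHLH genes looked up, Neurog2 was the only one to pass the filter, and 6 (Neurog1, Neurog3, Atoh1, Neurod1, Neurod4 and Neurod6) had no read in either library. Neurod2 had 2 reads in WT and 0 in Setd5+/- NSCs.

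Among the 3 genes for E proteins, with which proneural factors pair, Tcf12 was higher past 2-fold (2753 to 2780 in WT, 5878 to 6165 in Setd5+/- samples), while Tcf4 and Tcf3 were within 2-fold, and the median log2 ratio of the 3 was 0.21. Tcf4 was at 4477 normalized counts in WT and 5191 in the mutant.

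Genes that hold neuronal differentiation back differed in both directions. Of 11 such genes 10 were tested, with a median log2 ratio of -0.15, of which 2 were lower, 1 was higher and 7 were within 2-fold. Id4, which binds E proteins and keeps them from proneural factors, was lower (201 to 232 normalized counts in WT, 54.8 to 95.3 in Setd5+/- samples). Hes1, a Notch target that represses proneural genes, was lower as well (458 to 509 against 197 to 245). Rcor2, a corepressor of the CoREST family, was higher (487 to 601 against 1090 to 1200). Hes5, another Notch-driven repressor and the gene with the highest counts of this list, had a log2 ratio of 0.43 with an interval of 0.35 to 0.52.

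Dlx1 (ENSMUSG00000041911, chr2:71528113-71533981) and Dlx2 (ENSMUSG00000023391, chr2:71543408-71546754) lie next to each other and are transcribed from opposite strands, and their homeodomain proteins specify interneuron progenitors. Dlx1 had 3.32, 1.65 and 0 normalized counts in WT and 45.3, 21.4 and 19.1 in Setd5+/- samples. Its reads numbered 6 in the WT library and 72 in the mutant library. Dlx2 had 1.66, 3.31 and 1.66 normalized counts in WT and 15.5, 14.3 and 9.53 in Setd5+/- samples, from 8 and 33 reads. For both genes every mutant sample was above every WT sample, but all values were low.

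The mean of Dlx1 was 17.3-fold higher in the mutant library, with an interval of 5.45- to 87.6-fold, and that of Dlx2 was 5.94-fold higher, with an interval of 1.86- to 23.6-fold. The Dlx1 call rests on few reads, and without Setd5+/- sample 1 its mean fell under the filter, with a log2 ratio of 3.61. Leaving out WT sample 1 moved its log2 ratio to 5.11, and leaving out WT sample 3 to 3.52. Dlx1as, an antisense RNA gene that shares 335 exon bases with Dlx1 on the opposite strand, had 4.96 to 14.9 normalized counts in WT and 10.7 to 17.9 in Setd5+/- samples. Its samples overlapped and its log2 ratio of 0.64 had an interval of -0.32 to 1.68. The sources used here do not state whether counting used strand, so reads in the shared bases may belong to either gene.

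Dlx5 (ENSMUSG00000029755, chr6:6877805-6882085), which follows Dlx1 and Dlx2 in developing interneurons, had 0 reads in all 6 samples. A count of 0 allows up to 3 read pairs per library, or a mean of 1.66 normalized counts in WT, against 2.38 in the mutant. Dlx6, its neighbour, and both gene entries named Dlx6os1 were also at 0, while Dlx3 had 2 reads in WT and Dlx4 had 2 in the mutant. Of the 9 entries of the Dlx family, Dlx1 and Dlx1as were tested, with a median log2 ratio of 2.37, and Dlx1 was higher past 2-fold. Higher counts in this family were thus seen for Dlx1 and Dlx2, and Dlx5 and Dlx6 were not detectable at this depth.

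Other transcription factors of the ventral forebrain differed in both directions. Of 11 such genes 6 were tested, with a median log2 ratio of -0.59, of which 1 was higher and 1 lower past 2-fold. Sp9, a zinc finger factor of interneuron progenitors, had 18.2 to 21.5 normalized counts in WT and 61.9 to 85.7 in Setd5+/- samples, a log2 ratio of 1.89. Gsx1, a homeodomain factor of ventral progenitors, had 26.5 to 39.8 in WT and 0 in all Setd5+/- samples. With the mutant library set at the floor of 3 read pairs, Gsx1 was 13.7-fold lower, with a counting interval from 10.8-fold upward. It passed the filter only through its WT level and so had to be called. Under the filter, Gsx2 had 6.62 to 9.95 normalized counts in WT and 0 in all Setd5+/- samples, from 32 and 0 reads. Lhx8, also under the filter, had 2 reads in WT and 0 in the mutant. Meis2, a homeodomain factor of the striatal primordium with the highest counts of this list, had 613 to 649 in WT and 414 to 496 in Setd5+/- samples. Nkx2-1, Lhx6 and Isl1, which mark ventral and interneuron lineages, had no read in either library.

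Gad1 (ENSMUSG00000070880, chr2:70553072-70602014) encodes GAD67, a glutamate decarboxylase that makes GABA. It had 789, 725 and 730.4 normalized counts in WT and 100.1, 100.0 and 88.2 in Setd5+/- samples. The lowest WT sample was far above the highest mutant sample. The mean was 12.8% of WT, or 7.78-fold lower, with an interval of 6.46- to 9.45-fold from 2709 and 242 reads. Gad1 was thus lower in the library in which Dlx1 and Dlx2 were higher.

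Gad1os, an RNA gene on the opposite strand that overlaps Gad1 but shares 0 exon bases with it, had a mean of 8.29 normalized counts in WT, against 23.0 in the mutant. Of the 4 genes of GABA synthesis, breakdown and transport looked up, 3 were tested, with a median log2 ratio of -0.54, and Gad1 was lower past 2-fold while the other two were within 2-fold. Abat, which encodes the enzyme that breaks down GABA, had the highest counts of this group, with 1570.2 to 1717 in WT and 1068 to 1166 in Setd5+/- samples. Gad2, which encodes the other glutamate decarboxylase, had 18.2 to 24.8 in WT and 11.9 to 21.4 in Setd5+/- samples, which overlapped. Slc32a1, the vesicular GABA transporter that defines GABAergic neurons, had 0 reads in both libraries.

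**Figure D2:**
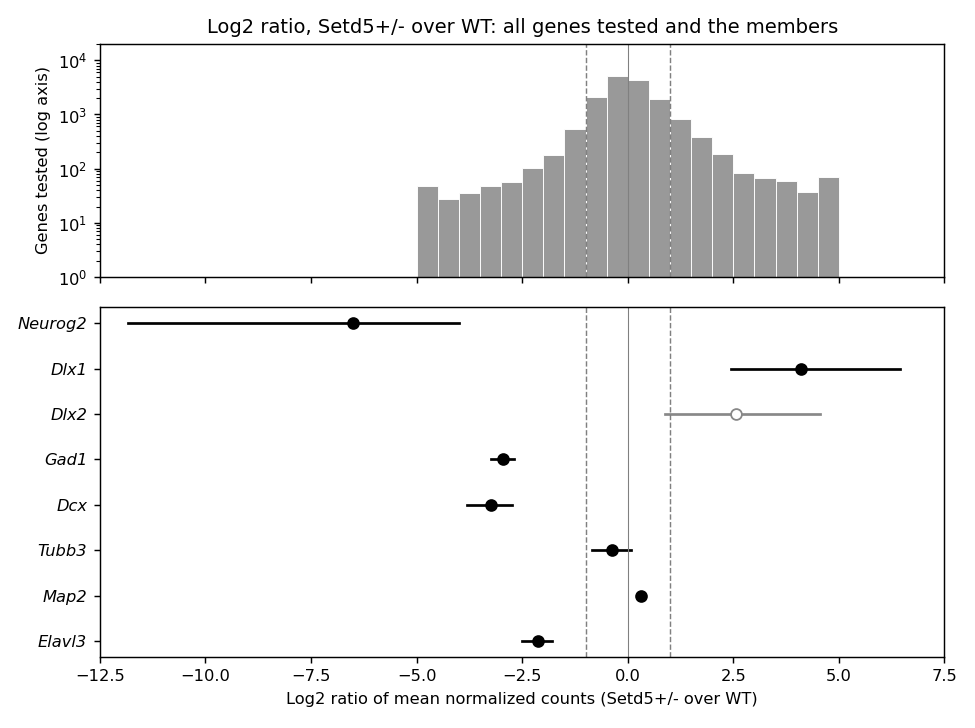
Top, number of genes tested (log axis) by log2 ratio of Setd5+/- over WT, where the end bars hold all genes beyond 4.5 in either direction. Bottom, log2 ratio of each member with reads and its 95% counting interval, with dashed lines at 2-fold and an open symbol for Dlx2, which was under the filter. The interval of Neurog2 is the widest, since it rests on 2 reads in the mutant library.

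Dcx (ENSMUSG00000031285, chrX:143855842-143933311) encodes doublecortin, the microtubule-binding protein of migrating neuroblasts. It had 264, 253 and 229 normalized counts in WT and 26.2, 33.3 and 19.1 in Setd5+/- samples. All mutant samples were below all WT samples by a wide margin. The mean was 10.5% of WT, or 9.48-fold lower, with an interval of 6.65- to 13.9-fold from 900 and 66 reads.

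Tubb3 (ENSMUSG00000062380, chr8:123411424-123422015) encodes the beta-III tubulin detected by the antibody TUJ1. It had 53.1, 71.1 and 64.6 normalized counts in WT and 47.7, 50.02 and 47.6 in Setd5+/- samples. The samples did not overlap, but they came close, and the log2 ratio of -0.38 had an interval of -0.85 to 0.08 that includes no difference. Tubulin genes resemble each other in sequence, and how reads that match several of them were counted is not given in the sources used here.

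Map2 (ENSMUSG00000015222, chr1:66175273-66442583) encodes the microtubule-associated protein of dendrites and had the highest counts of the 9 genes. It had 10195, 9833 and 9919 normalized counts in WT and 12513, 12430.2 and 12391 in Setd5+/- samples. The mutant samples were all above the WT samples, by a log2 ratio of 0.32 with an interval of 0.29 to 0.35. Chromosome 1, where Map2 lies, stood apart in the mutant library: its 1044 tested genes had a median log2 ratio of 0.54, against -0.16 to 0.02 for the medians of the 19 other chromosomes examined (2 to 19 and X). The 10 tested genes nearest to Map2 had a median of 0.52, and 3 of them were higher past 2-fold. The log2 ratio of Map2 was thus below the median of its chromosome, and the part of the chromosome in its value was not tested.

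Microtubule genes of young neurons were looked up together. Of 17 genes 15 were tested, with a median log2 ratio of -0.30, and 3 were lower, 1 higher and 11 within 2-fold. Beside Dcx, the lower genes were Tubb2a (1130 to 1148 normalized counts in WT, 313 to 400.1 in Setd5+/- samples) and Tubb2b (3313 to 3395 against 1406 to 1517), both beta-tubulins of growing neurons and progenitors. Map1b, a microtubule-associated protein of growing axons, was the gene that was higher, with 91.9 to 108 against 926 to 1013, a log2 ratio of 3.27. Map2 had the highest counts of this list as well. Within this class the libraries thus differed in both directions.

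Elavl3 (ENSMUSG00000003410, chr9:22015005-22052023) encodes HuC, an RNA-binding protein that stabilises neuronal mRNAs. It had 259, 275 and 283 normalized counts in WT and 45.3, 69.1 and 71.5 in Setd5+/- samples. The groups were well apart. The mean was 22.7% of WT, or 4.399-fold lower, with an interval of 3.46- to 5.67-fold from 987 and 156 reads. In the annotation Gm49318, on the same strand, shares 256 exon bases with Elavl3, and it had a mean of 61.6 in WT and 39.7 in Setd5+/- NSCs.

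All 4 genes of the Elavl family were tested, with a median log2 ratio of -1.81, and the 3 neuronal members were lower past 2-fold. Elavl4, which encodes HuD, had 276, 285 and 253 normalized counts in WT and 33.4, 19.1 and 38.1 in Setd5+/- samples, 8.99-fold lower. Elavl2, which encodes HuB, had 102 to 105 in WT and 26.2 to 45.3 in Setd5+/- samples, 2.78-fold lower. Elavl1, which encodes HuR and is made in most cell types, had the highest counts of the family, with 847 to 879 against 561 to 655 and a log2 ratio of -0.50. Of 8 other genes for neuronal RNA-binding proteins, 5 were tested and all 5 were within 2-fold, with a median of -0.54. The others were under the filter, with 14 reads in WT and 0 in the mutant for Rbfox1, 27 and 0 for Rbfox3 and 26 and 12 for Celf4. Nova1, the splicing regulator with the highest counts among these 8, had 2218 to 2332 in WT and 1447 to 1523 in Setd5+/- samples.

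**Figure D3:**
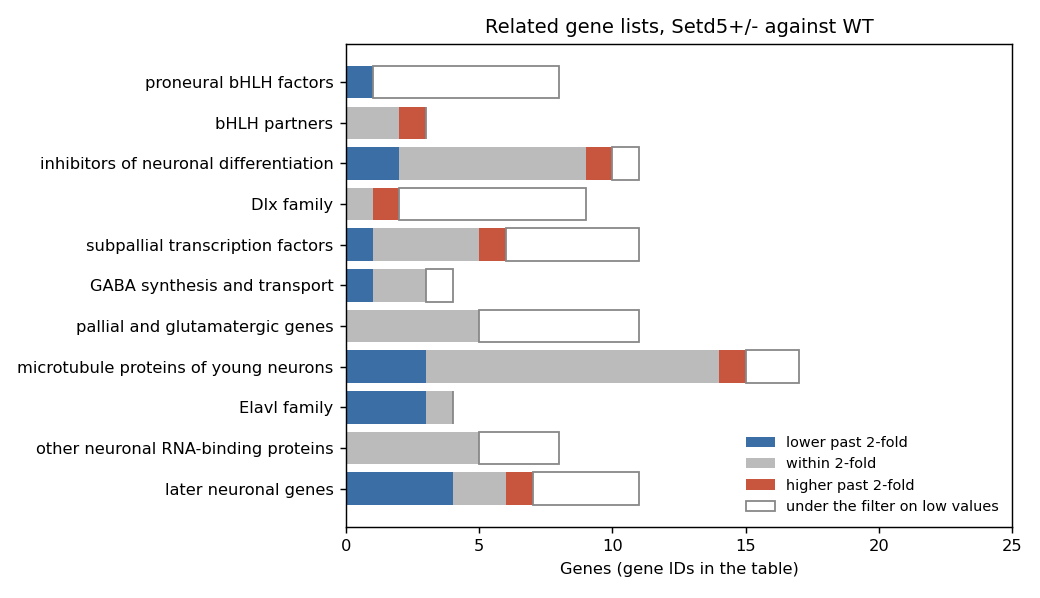
Number of genes in each related list that were lower past 2-fold (blue), within 2-fold (grey), higher past 2-fold (red) or under the filter on low values (white) in Setd5+/- against WT. The Elavl family and the later neuronal genes hold 3 and 4 lower genes, and the pallial list and the other RNA-binding proteins hold no tested gene past 2-fold.

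Of 11 pallial and glutamatergic genes, the programme in which Neurog2 normally acts, 5 were tested, with a median log2 ratio of 0.22, and all 5 were within 2-fold. The others had too few reads to be compared. In WT and mutant these were 6 and 12 for Eomes, 0 and 4 for Tbr1, 6 and 6 for Slc17a7, 0 and 0 for Slc17a6, 2 and 0 for Emx1 and 0 and 3 for Fezf2. Pax6, a homeodomain factor of cortical progenitors upstream of Neurog2, had the highest counts of this list, with 380 to 428 in WT and 524 to 541 in Setd5+/- samples. Of 11 genes of later neurons, 7 were tested, with a median of -1.05, and 4 were lower, 1 higher and 2 within 2-fold. Of the 4 lower genes, 3 (Ina, Syt1 and Snap25) passed the filter only through their WT level and so had to be called. The lower genes were Ina, an intermediate filament of neurons (92.8 to 97.6 in WT, 2.38 to 9.53 in Setd5+/- samples), the synaptic vesicle protein genes Syt1 (60.5 to 67.8 against 3.58 to 7.15) and Syn1 (165 to 178 against 78.7 to 92.9), and Snap25, whose protein drives vesicle fusion (12.4 to 26.5 against 2.38 to 10.7). Ncam1, an adhesion molecule of neurons and glia and the highest of the list, was higher, with 1244 to 1416 in WT and 3677 to 3794 in Setd5+/- samples.

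Compared per kb of annotated exon, Map2 had the highest mean level of the 8 members with reads in both libraries, at 607 normalized counts per kb in WT, against 757 in the mutant. In WT it was followed by Gad1 at 97.9 per kb, Elavl3 at 39.5, Tubb3 at 33.7, Neurog2 at 32.5, Dcx at 19.6, Dlx2 at 0.77 and Dlx1 at 0.31 per kb. The WT samples overlapped between the neighbours Elavl3 and Tubb3, between Tubb3 and Neurog2 and between Dlx2 and Dlx1, so these orders are not resolved. In Setd5+/- NSCs the order was Map2, Tubb3 at 25.9 per kb, Gad1 at 12.6, Elavl3 at 8.99, Dlx1 at 5.30, Dlx2 at 4.59, Dcx at 2.07 and Neurog2 at 0.36 per kb. The mutant samples overlapped between Elavl3 and Dlx1 and between Dlx1 and Dlx2, so these orders are not resolved either. Neurog2 was above Dcx in every WT sample and below it in every mutant sample, and was the lowest of the 8 genes in the mutant library. The length counts all annotated exons of a gene, whether or not the cells use them, and alignment did not split reads over introns. The part of both in the order of the genes was not tested.

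**Figure D4:**
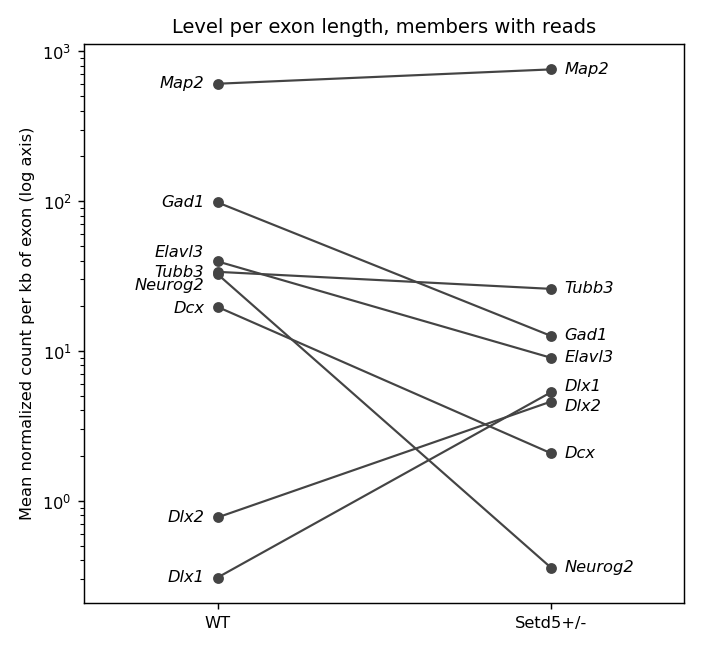
Mean normalized count per kb of annotated exon (log axis) of the 8 members with reads in WT (left) and Setd5+/- (right), joined by a line for each gene. Neurog2 drops from 32.5 to 0.36 per kb, while Dlx1 goes from 0.31 to 5.30 and Dlx2 from 0.77 to 4.59.

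The genes around each member were then compared with it. The 10 tested genes nearest to Gad1 had a median log2 ratio of -0.06, with 1 (Gad1os) higher and none lower past 2-fold. Around Dcx the median was -0.32 with no gene past 2-fold, and around Elavl3 it was -0.12, with 1 gene (Ccdc151) higher and none lower. Ccdc151 (means of 6.90 in WT and 34.9 in the mutant) and Gad1os (8.29 and 23.0) passed the filter only through their mutant level. Around Neurog2 the median was -0.50, and 2 of the 10 genes were lower past 2-fold. Both, A930036I15Rik (means of 23.5 in WT and 7.15 in the mutant) and 5730508B09Rik (72.3 and 0.79), passed the filter only through their WT level. One of these, 5730508B09Rik, was chosen after its values were seen. Its midpoint lies 248 kb from that of Neurog2, and it had 63.0, 87.7 and 66.3 normalized counts in WT and 0, 2.38 and 0 in Setd5+/- samples, nearly the same levels as Neurog2. Around Dlx1 the median was -0.29, with 1 gene (Itga6) higher and 2 genes (Pdk1 and Rapgef4) lower past 2-fold. For Gad1, Dcx, Elavl3 and Dlx1, the value of the member stood outside the range of its 10 neighbours. These members were chosen with earlier results known. Their log2 ratios lie at percentiles 0.996, 0.83, 1.78 and 99.4 of all genes tested. Standing outside 10 other genes was thus likely beforehand and carries no weight of its own. Dlx2, next to Dlx1 and with a log2 ratio of 2.57, was under the filter and so is not among its 10 neighbours.

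**Figure D5:**
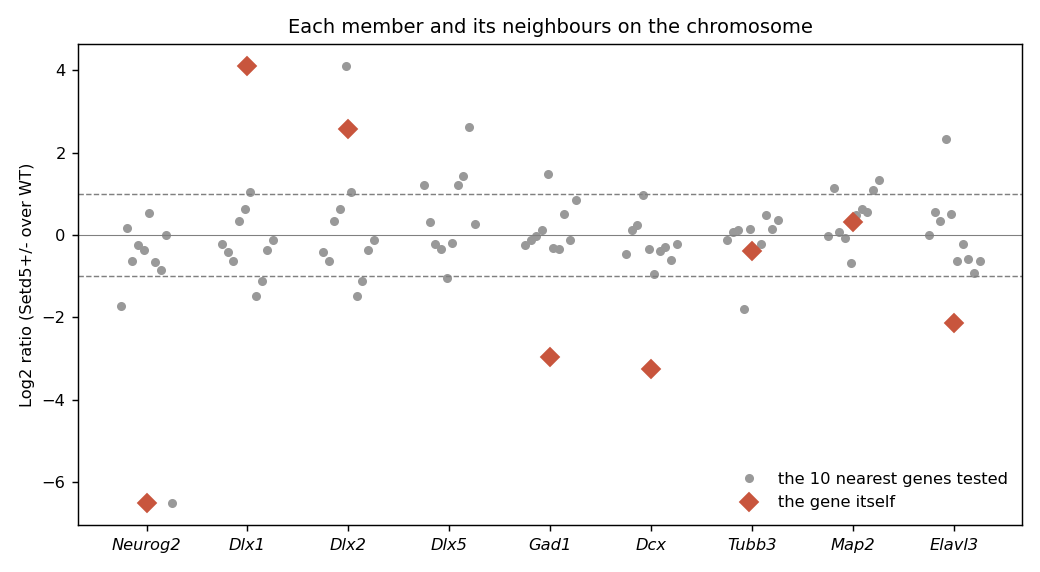
Log2 ratio of Setd5+/- over WT for each member (red diamond) and for the 10 tested genes nearest to it on the chromosome (grey, in order of position), with dashed lines at 2-fold. Gad1, Dcx and Elavl3 lie below and Dlx1 above all their neighbours, 1 neighbour of Neurog2 lies at the same value as Neurog2, Map2 lies among its neighbours, and Dlx5 has no value.

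Markers of several cell types were read beside these genes. All 10 markers of neural stem cells had reads and were tested, with a median log2 ratio of -0.09, of which 1 was higher, 2 were lower and 7 were within 2-fold. Of the 2 lower markers, Prom1 (24.6 in WT, 2.38 in the mutant) passed the filter only through WT. The summed level of the 10 was 76466 to 76657 normalized counts in WT and 61341 to 62110.3 in Setd5+/- samples. Without Fabp7 it was higher in the mutant, at 40425 to 40638 against 49773 to 50727. Of 10 neuron markers 8 had reads, and the summed level of the 10 was 277 to 295 in WT and 97.7 to 125 in Setd5+/- samples. Of the 4 neuron markers tested 3 were lower past 2-fold, but Syt1 and Snap25 among them passed the filter only through WT, and Syn1 is the third. The neuron markers Slc17a6 and Slc32a1 were at 0 in both libraries. All 8 oligodendrocyte lineage markers had reads, with a sum of 40997 to 41788 in WT and 23688 to 24533 in Setd5+/- samples, and of 7 tested 2 were lower past 2-fold, both of which passed the filter only through WT. All 7 astrocyte markers had reads, and of 6 tested 3 were higher and 2 lower past 2-fold, with a median log2 ratio of 0.74. Their sum was 11162 to 11298 in WT and 9908 to 9963 in the mutant, and without Slc1a2 it was higher in the mutant, at 6452 to 6619 against 8672 to 8744. Proliferation markers, all 6 with reads, summed to 5247 to 5422 and 6418 to 6546, with 3 higher and 3 lower, of which Pcna (101 against 29.4) was the only gene past 2-fold. Markers of microglia (4 of 5 with reads, 78.6 to 119 against 51.2 to 70.3), of endothelial cells (4 of 4, 6.63 to 9.93 against 10.7 to 26.2) and of mesenchymal cells (5 of 7, 5.79 to 14.1 against 2.38 to 14.3) were low, with Cx3cr1, Lum and Twist1 at 0. Without Csf1r the microglia sum was 1.66 to 2.48 in WT and 2.38 to 7.15 in the mutant. Without Kdr the endothelial sum was 0 to 4.14 and 1.19 to 2.38. The summed level of the neuron markers was thus lower in the library in which Neurog2, Gad1, Dcx and Elavl3 were lower, and its part in these values was not tested.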

How the data were processed

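RNA-seq of WT and Setd5+/- NSCs was analysed from 1 deposited table. The authors trimmed reads with Trimmomatic, aligned them with Bowtie2, which does not split reads over introns, to mm10, and deposited normalized counts, that is, reads on each gene divided by a size factor from DESeq2. The counting program and its use of strand are not given in the sources used here. The table also holds the authors' fold changes and p-values, which were not used.

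Many deposited values had lost their decimal point. The point was set where a value became a whole number of reads (1 read is worth 0.827 to 0.829 normalized counts in WT and 1.19 in Setd5+/-), and the deposited mean settled 1116 genes, none of them a member. The digits of all 52438 deposited means were then matched, of which 26797 belong to genes with reads. The deposited mean had itself been used to accept or move points, so this is no separate check. The variance of reads over their mean within a genotype was 1.94 and 1.92, as when both ends of a pair are counted, so intervals use read pairs.

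Log2 ratios were taken of mean normalized counts, with a library without reads set at 3 read pairs, over genes with a mean of at least 10. A call was a difference of at least 2-fold. As a comparison of reads only, limma 3.58.1 (R 4.3.3) was run on log2(normalized count + 1) with Benjamini-Hochberg adjustment at 0.05. The procedures were tested on simulated data. Gene positions are those of GENCODE vM21 on GRCm38, the sequence of mm10.

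Named genes are the 9 members, Setd5 and, in each related list, the genes past 2-fold and the gene with the highest counts. The members and the lists were chosen with earlier results of these data known, and some genes of the lists are not reported here. Other genes were added after their values were seen. Scaling, filter, pseudocount, fold, replicate block and left-out samples were varied.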

Additional observations from a re-analysis of the deposited data

How the results depend on the processing

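The members kept the direction of their log2 ratio in all 80 alternatives tried, which were 10 for each of the 8 members with reads. These alternatives rescale the same 2 libraries, add a pseudocount or leave out 1 part of a library, so they are no replicate check. For Tubb3 the counting interval of -0.85 to 0.08 still includes no difference. The log2 ratios of the members ranged from -6.63 to -4.34 for Neurog2, 3.48 to 5.11 for Dlx1, 2.14 to 2.98 for Dlx2, -2.9995 to -2.90 for Gad1, -3.46 to -3.06 for Dcx, -0.49 to -0.28 for Tubb3, 0.28 to 0.36 for Map2 and -2.25 to -1.96 for Elavl3. Other scalings moved the median of all genes from -0.02 to between -0.06 and 0.02. Genes past 2-fold numbered 2751 of 16266 tested, 1640 of 12570 with a filter of 50 and 4712 of 20554 with no filter. With a fold of 1.5 the number was 5805 of 16266. Members past 2-fold numbered 3 with the filter of 50, where fewer genes are tested, and their median was -1.26 with no filter, which adds Dlx2. With 1 sample left out, 2756 to 2835 genes and 4 to 5 members were past 2-fold, and the median of the members was -2.47 to -2.11. Calls by limma numbered 9963, 2696 with a fold of at least 2 as well, and 9140 to 9589 genes and 6 members with 1 sample left out. The replicate numbers do not pair the samples, since same-numbered samples did not deviate together (correlations -0.03 to -0.0014), and with a replicate block 9946 genes and 6 members were called. Few reads limit Neurog2 in the mutant, Dlx1 and Dlx2 in WT, and Dlx5 in both.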
